A study of Mus musculus with 16 samples.

Results

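Hey2 knockout and wild-type mouse aortic smooth muscle cells were compared in the serum-starved state and in the first minutes of PDGF-BB. The 6 arrays at 0, 15 and 30 min, 3 of each genotype, were chosen by genotype and time from the 16 arrays of the series, without use of any measured value. The series followed both genotypes, treated in parallel, from 0 to 480 min of PDGF-BB to find transcripts behind an unequal response to this growth factor. Both groups held cells explanted and digested from aortas freed of adventitia, on a mixed C57BL/6 and 129SvJ background, at passage 10 to 20. Both were starved for 48 h in 0.4% FCS and then given 5 ng/ml human PDGF-BB for 0, 15 or 30 min, so that the labels separate the groups by the Hey2 genotype alone. The labels give neither the structure of the Hey2 allele nor the number of mice or isolates behind each genotype. The p-values and SEs therefore rest on how differences between time-matched arrays varied over the 3 times, both for the gene and for genes of similar signal. They do not rest on a spread between isolates. The genotype cannot be told apart from the isolate. The wild-type array labelled 30 min carries no number of minutes in its protocol text.

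Hey2 is a basic helix-loop-helix repressor that is switched on by Notch: a Jagged or Delta ligand on one cell frees the intracellular part of a Notch receptor on its neighbour, which joins the DNA-binding protein Rbpj to activate Hey and Hes genes. In arteries, Hey2 and Notch are known for setting arterial identity and for acting on the balance between a contractile and a proliferative smooth muscle state. PDGF-BB binds the receptors Pdgfrb and Pdgfra and is the classic signal that draws vascular smooth muscle cells out of quiescence and lowers their contractile genes.

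Values are probe-set signals on the normalized linear scale, given in the order 0, 15 and 30 min, and a difference is knockout minus wild type on the scale log2(signal + 4.6), with its standard error (SE). Each gene is read by its brightest probe set that passed a signal of 16 on at least 3 of the 6 arrays, and 12849 genes were tested. A gene is called at a limma adjusted p under 0.05, with the 3 times as blocks. Where any of its signals lies at or below 16, a gene's difference is no exact size, whether or not this is repeated below.

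Both genotypes were measured on arrays of similar quality except for 1 dim array. The wild-type array at 30 min had a trimmed mean signal of 81.0 as deposited, against 187 to 252 on the other 5. Its correlation with the mean of the other 2 wild-type arrays was 0.983 after normalization, the lowest of the 6, against 0.987 to 0.989 for the other 5, and its deviation from the genotype mean had the greatest SD, 0.29 on the log2 scale against 0.22 to 0.25. The ratio of 3' to 5' probe sets, a measure of RNA integrity and labelling, ran from 1.95 to 3.88 for Actb and from 3.19 to 5.65 for Gapdh, and both extremes of the Gapdh ratio were on knockout arrays. Its part in the results below was not tested.

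The genotype difference was broad. Of the 12849 genes tested, 5091 were called (39.6%), 2516 higher in the knockout (19.6%) and 2575 lower (20%), and 5068 of the 5091 had the same sign at all 3 times. The median size of a called difference was 0.58 on the log2 scale, and 1189 called genes differed by at least 2-fold (9.25%), 750 higher (5.84%) and 439 lower (3.42%). The 3 knockout and 3 wild-type arrays did not overlap for 6301 genes (49%). Where the mean over all tested probe sets ended the call of a gene given as higher or lower, or moved its difference by over 1.5 times, that mean is given. Every count of list members below is to be read against these shares. The count depends on whether the arrays were scaled and on the intensity trend of the fit, which ties the expected spread of a gene to its signal. Without that trend, 3331 genes were called. With the arrays scaled to a common trimmed mean, 5013 of 13108 genes were called, 2426 higher and 2587 lower. With the values as deposited, without normalization between arrays, 301 genes were called. Of these, 86.0% were higher in the knockout in place of 49.4%. The median difference of all genes was then 0.42 in place of -0.01. Where the sign of a list median turned on these values, that median is given too, to be read against the 0.42 of all genes. Without the arrays at 30 min, which include the dim array, 4367 genes were called. Of the called genes, 1321 had another tested probe set called the same way and 74 had one called the opposite way.

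Hey2 itself was lower on the arrays labelled knockout at all 3 times. Its signal was 101, 102 and 113 in the wild type and 34.3, 63.3 and 42.2 in the knockout. No knockout array reached the wild-type range, and the difference was -1.14 (SE 0.20, limma adjusted p 0.00176). The knockout signal stayed above 16 on all 3 arrays, so the probe set still gave a reading there. The sources used here do not place it relative to the altered part of Hey2. At 120, 180 and 240 min the same probe set read 14, 19.3 and 16.6 in the wild type and 23.3, 34.8 and 41 in the knockout. The order of the readings thus goes with the labels at 0 to 30 min and against them later. The late wild-type signals lay near 16, so the late difference is no exact size.

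The other members of the Hey and Hes family differed in both directions or were not called. Of 12 tested genes of the list of Hey and Hes repressors and other Notch targets, 4 were higher and 2 lower. Hey1, the closest relative of Hey2, read 4.53, 7.26 and 6.01 in the wild type and 38, 37.2 and 23.9 in the knockout. All 3 knockout arrays were above 16 and no wild-type array was, so the knockout was at least 2.02-fold higher (limma adjusted p 0.00483). Nrarp, a Notch-induced inhibitor of Notch signalling, read 37.8, 31.1 and 19.9 in the wild type and 87.6, 88.2 and 77.7 in the knockout (1.42, SE 0.21). The knockout arrays were all above the wild-type arrays for Nrarp and for Bhlhe40, a related stress-responsive repressor, which differed by 0.92. Besides Hey2, the member called lower was Hes6 (-0.40), which was not called without the arrays at 30 min (-0.24) or without the intensity trend of the fit, and was at 0.0942 on the values as deposited. The corepressor Tle4 differed by 0.50, a call that was lost without the arrays at 15 min (0.45) or at 30 min (0.39) or without the intensity trend. Hes1, the general Notch target, differed by 0.19 (SE 0.12) and Heyl by -0.03 (SE 0.36). The mean over the probe sets of Nrarp differed by 0.85. Hes1 and Heyl were not called, and the Hes1 arrays of the genotypes overlapped.

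Notch ligands and receptors differed in both directions. Of 23 tested ligands, receptors and modifiers, 4 were higher and 6 lower, a share near that of all genes. Jag1, the main Notch ligand of smooth muscle, read 4152, 4130.1 and 4181 in the wild type and 2619, 2775 and 2804 in the knockout. The 3 wild-type arrays differed from each other by far less than the gap to the knockout (-0.60, SE 0.05, limma adjusted p 2.70e-05). Its relative Jag2 went the other way, with 61.1, 35.7 and 33.9 in the wild type and 134, 130.2 and 124 in the knockout (1.52, SE 0.19). The receptor Notch1 read 64, 98.2 and 55.8 in the wild type against 129.8, 119 and 160.0 in the knockout and was called higher (0.89, SE 0.21). Notch2 differed by -0.30 and was called lower. Notch3, the receptor most typical of arterial smooth muscle, differed by 0.10 (SE 0.18) and was not called. Rbpj, through which all Notch receptors act, was lower by a difference of -0.35, and its coactivator Maml1 by -0.41. The values of Notch2, Rbpj and Maml1 were 0.19, 0.0302 and 0.0944 on the values as deposited, where all genes had a median of 0.42, and Notch2 was not called without the arrays at 30 min (-0.22). Over the mean of its probe sets, Notch1 differed by 0.23 and Notch2 by -0.03, and neither was then called, while Rbpj differed by -0.59. Neither they nor Rbpj were called without the intensity trend of the fit. Aph1a, a subunit of the gamma-secretase that releases the receptor's intracellular part, was higher (0.52, mean of its probe sets 0.32), as was Psen2, a catalytic subunit of it (0.59).

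**Figure D1:**
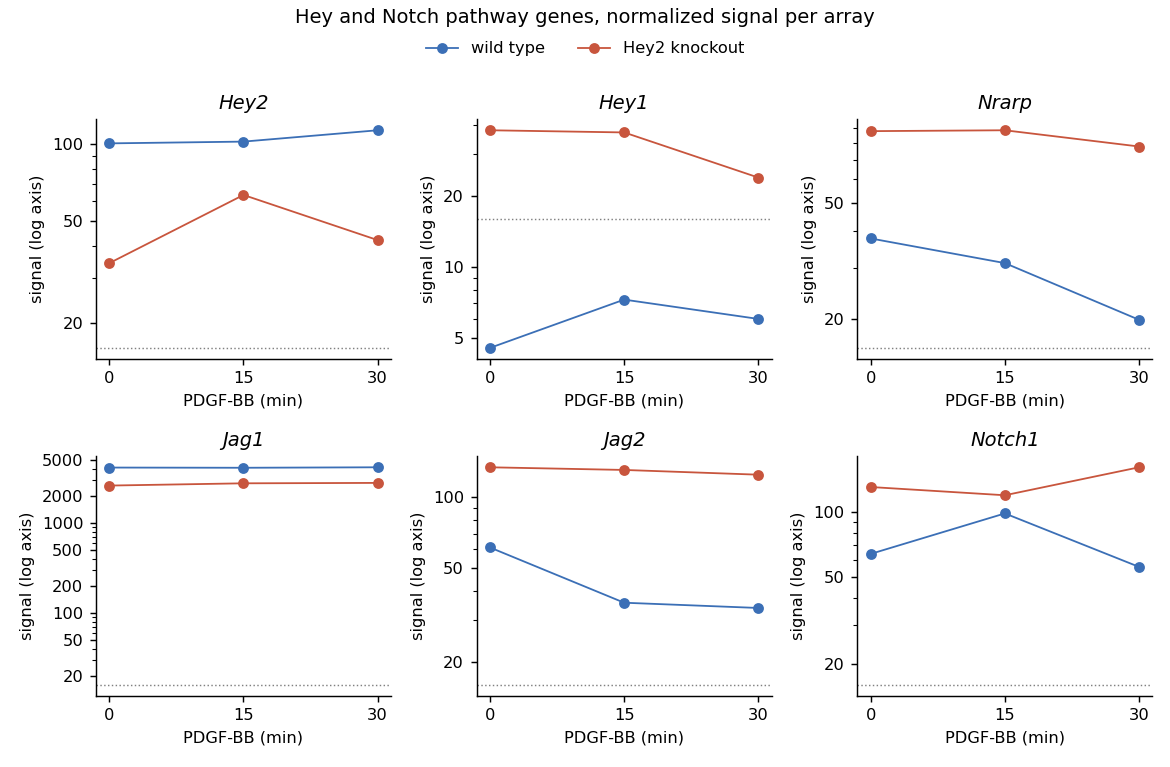
Normalized signal (log axis) of 6 Hey and Notch pathway genes against minutes of PDGF-BB, 1 point per array, with the 3 wild-type and 3 knockout arrays joined by lines; the dotted line is the signal of 16 used as the filter. The knockout points lie below the wild-type points at every time for Hey2 and Jag1 and above them for Hey1, Nrarp, Jag2 and Notch1.

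The labelled cell type was checked against its markers, since the labels name alpha actin and calponin as the stains by which purity was judged. Acta2, the alpha actin, gave a strong signal in both genotypes, at 8413, 8860.3 and 8217 in the wild type and 5203, 5504 and 5203 in the knockout (-0.68, SE 0.04, mean of its probe sets -1.11). Cnn1, calponin, read 41.4, 60.2 and 83.9 in the wild type and 2.94, 10.2 and 6.81 in the knockout. No knockout array was above 16 for Cnn1, so the wild type was at least 3.71-fold higher (limma adjusted p 2.52e-04). The summed signal of the 10 contractile markers ran from 12647 to 13635 in the wild type and from 6583 to 6871 in the knockout, and 8 of the 10 were called lower with none higher. In bulk RNA, fewer cells of a type and less RNA per cell cannot be told apart.

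Genes of mesothelium, the epithelial-like layer that lines body cavities and covers organs, were far higher in the knockout cells. Of 19 tested mesothelial markers 16 were higher and 3 lower, with a median difference of 2.09, and their summed signal was 8412 to 8934 in the wild type and 27958 to 29706 in the knockout. Msln, mesothelin, read 394, 458 and 359 in the wild type against 3156, 3283 and 3112 in the knockout (2.97, SE 0.08). The uroplakins Upk3b and Upk1b read 158, 170.3 and 169 and 253, 289.9 and 353 in the wild type and 3567, 3146 and 3442 and 3827, 3091 and 3594 in the knockout. The wild-type cells therefore also gave signal for several of these genes, at a lower level. Lrrn4, a membrane protein of mesothelium, differed by 4.30 and Krt19, a simple-epithelium keratin, by 3.41. Wt1, the transcription factor of mesothelium and its embryonic derivatives, read 46.9, 26.8 and 33.9 in the wild type against 281, 184 and 331 in the knockout (2.73, SE 0.17). The 3 members called lower were Krt18 (-1.92), Cdh3 (-1.15) and Nkain4 (-0.29), which are all of those called lower. Krt18 read 6.22, 13.6 and 23.1 in the knockout, so that its difference is no exact size. Nkain4 was not called without the arrays at 0 min (-0.28) or at 30 min (-0.22), nor Cdh3 without those at 15 min (-1.02), and Nkain4 was at 0.21 on the values as deposited. Nor was Nkain4 called without the intensity trend. The part of these markers in the other genotype differences was not tested.

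Markers of other cell types were low or divided. Of 17 endothelial markers, 8 did not exceed 16 on any of the 6 arrays, among them Pecam1, Cdh5 and Vwf, and the summed signal was 612 to 638 in the wild type and 242 to 309 in the knockout. Eng, endoglin, was the 1 endothelial marker called, at 402, 421 and 395 in the wild type and 77.2, 106 and 93 in the knockout (-2.10). Of 14 leukocyte markers, 8 did not exceed 16 on any array, including the pan-leukocyte gene Ptprc, and the sums were 617 to 665 in the wild type and 892 to 916 in the knockout. Of the 6 tested, 1 was called higher, the lipopolysaccharide co-receptor Cd14 (0.73), and none lower. The adventitial fibroblast markers summed to 17160 to 18818 in the wild type and 18200 to 19711 in the knockout, overlapping ranges, with 6 of 13 higher and 4 lower. Thy1, a fibroblast surface protein, was not above 16 on any wild-type array and at least 9.85-fold higher in the knockout, while Lum, lumican, was lower (-3.90), as were Scara5 (-0.53), Pdgfrl (-0.61) and Pdgfra. Scara5 was not called without the arrays at 0 min (-0.53) or 15 min (-0.30) or without the intensity trend. The chondrocyte markers summed to 1264 to 1339 in the wild type and 339 to 405 in the knockout, and of 11 tested 4 were lower and 1 higher. Col2a1, the collagen of cartilage, read 631, 662 and 761 in the wild type and 23.1, 6.27 and 29 in the knockout. Sox5, Sox9 and Acan, aggrecan, were the others called lower, with Acan not above 16 on any knockout array (at least 1.13-fold lower) and not called without the arrays of any 1 time. Sox6 was called higher (1.31), but not without the arrays at 15 min (0.65) or the intensity trend. The adipocyte markers summed to 2700 to 3247 and 6666 to 6876, with Fabp4 (1.70) and Lpl (1.39) higher and Plin4 (-1.96) lower. The striated muscle markers summed to 366 to 452 and 270 to 325, with 3 of 6 lower, Myh7, a cardiac myosin heavy chain (-2.47), Actc1, the cardiac alpha actin (-1.49), and Actn2, a sarcomeric actinin that was not above 16 on any knockout array (at least 2.02-fold lower). Without the arrays at 15 min, Actc1 and Actn2 were not called, nor was Actn2 without those at 0 min (-1.16). Actc1 read 3.22, 6.27 and 20.1 in the knockout, so that its difference is no exact size. None of 4 tested osteoblast markers was called. Of 6 pericyte markers 2 were lower, Pdgfrb and Mcam (-0.63), and the sums were 4864 to 5328 and 3925 to 4343. Of 8 Schwann cell and neural crest markers, S100b was lower (-1.46) and Erbb3 higher (0.72). Erbb3 was not called without the arrays at 0 min (0.58), nor Mcam without those at 0 min (-0.49) or 15 min (-0.63).

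The contractile proteins were lower in the knockout cells. Of 29 tested members, 20 were lower, 10 of them by at least 2-fold, 2 were higher and the median was -0.53. Tagln, the actin-bundling protein SM22, read 2528, 2806 and 2615 in the wild type and 787, 781 and 722 in the knockout (-1.79, SE 0.07, limma adjusted p 1.83e-07). Myl9, the regulatory light chain whose phosphorylation starts contraction, read 1085, 1207 and 1199 in the wild type against 203, 176 and 153 in the knockout (-2.69, SE 0.12). The gap was several times the range within either genotype for both genes. Myh11, the smooth muscle myosin heavy chain, was dim, at 27.2, 34.1 and 21.3 in the wild type, and not above 16 on any knockout array (at least 1.69-fold lower, limma adjusted p 0.0404). The Myh11 call was lost without the arrays at 0 min (-1.21) or at 15 min (-0.84). Actg2, the enteric gamma actin, read 121, 155 and 166 in the wild type and was not above 16 on any knockout array, at least 9.14-fold lower. Sorbs2, an adaptor of actin stress fibres, differed by -2.50, Synpo2, an actin-bundling protein, by -2.23 (mean of its probe sets -0.82, not called) and Nexn, a filamin-binding protein of the contractile apparatus, by -1.43. The decrease was thus steepest for some members and smaller for Acta2 (-0.68, mean of its probe sets -1.11). The 2 members called higher were Itga8, the smooth muscle integrin alpha8 (1.06), and Pdlim7, a LIM protein of actin filaments (0.46, mean of its probe sets 0.08, not called).

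The regulators of this programme were lower in part. Of 30 tested, 12 were lower, 2 were higher and the median was -0.22, which was 0.21 on the values as deposited, where all genes had a median of 0.42. Prrx1, a homeobox factor that works with serum response factor, read 4633, 4621 and 4493 in the wild type and 1715, 1764 and 1667 in the knockout (-1.42, SE 0.06). Mrtfa, the actin-sensing coactivator of serum response factor, read 832, 955 and 849 in the wild type against 383, 404 and 415 in the knockout (-1.12, SE 0.09). Both sets of arrays were well separated. Mef2c, a muscle transcription factor, differed by -1.0, Foxf1, a forkhead factor of visceral smooth muscle, by -1.19 and Twist2 by -0.95. Srf, the serum response factor itself, differed by -0.04 (SE 0.09), and Gata6, a GATA factor of vascular smooth muscle, by 0.18 (SE 0.08). Neither was called. Myocd, myocardin, the master coactivator of these genes, did not exceed 16 on 3 arrays and was not tested. The 2 members called higher were Twist1 (0.67) and Mef2d (0.25), and the Mef2d call was lost without the arrays of any 1 time (0.22 to 0.27) and over the mean of its probe sets (0.13). The Mef2d call was also lost without the intensity trend. Gata6 was called without the arrays at 15 min (0.27).

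Serum response factor binds a 10-letter motif, the CArG box, and the promoters of the contractile genes called lower were searched for it because most of the list was lower. The RefSeq promoter table (GRCm38.p6) covers 250 bases before to 50 after each gene's start and held 16 of the 20 genes. The motif searched was CC, then 6 letters that are each A or T, then GG, on both strands, which is its own reverse complement in form. It occurred in 5 of the 16 promoters (31.2%), against 166 of 10309 tested genes with a promoter in the table (1.61%) and 488 of all 27025 in it (1.81%). Among genes at least 2-fold lower it occurred in 13 of 327 (3.98%), and among those at least 2-fold higher in 10 of 569 (1.76%). The members of the contractile list that were not called lower were not counted. Whether the motif goes with the decrease, rather than with the list, was therefore not tested. A match describes the letters and is not a shown binding site. The 5 stretches are printed 5' to 3' on the gene's strand with the box in capitals and 25 bases on each side, or fewer where the window ended.
Cnn2, chr10:79988519-79988578, plus strand: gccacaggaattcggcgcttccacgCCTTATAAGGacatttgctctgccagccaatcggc
Filip1l, chr16:57549155-57549214, plus strand: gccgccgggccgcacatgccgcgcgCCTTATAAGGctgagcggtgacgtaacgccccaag
Myl6, chr10:128493025-128493084, minus strand: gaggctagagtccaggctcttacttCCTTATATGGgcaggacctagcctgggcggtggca
Myl9, chr2:156775278-156775337, plus strand: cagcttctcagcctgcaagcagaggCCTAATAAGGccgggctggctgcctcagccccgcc
Vcl, chr14:20929148-20929205, plus strand: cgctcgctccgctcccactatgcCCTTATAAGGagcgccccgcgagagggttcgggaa
The box of Cnn2, Filip1l and Vcl has the same 10 letters, and those of Myl6 and Myl9 differ from it within the central stretch. The box ends 46 bases before the start in Cnn2, 52 in Filip1l, 40 in Myl6, 151 in Myl9 and 217 in Vcl. The differences of these genes were -0.31 for Cnn2, a calponin, -0.48 for Filip1l, -0.54 for Myl6, a myosin light chain, -2.69 for Myl9 and -0.41 for Vcl, the focal adhesion protein vinculin (mean of its probe sets -0.75). Cnn2, Filip1l and Myl6 were not called without the intensity trend. All but Myl9 were thus small differences, and Myl6 was not called without the arrays at 30 min (-0.30).

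Hey proteins bind E-boxes and related letters, so the 6-letter motifs CACGTG and CACGCG were counted in the same windows on both strands. CACGTG occurred in 11.5% of tested genes, 10.2% of those at least 2-fold higher in the knockout and 9.48% of those at least 2-fold lower. CACGCG occurred in 19.6%, 14.9% and 15.3%. The shares in both groups of genes were no higher than among all tested genes.

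**Figure D2:**
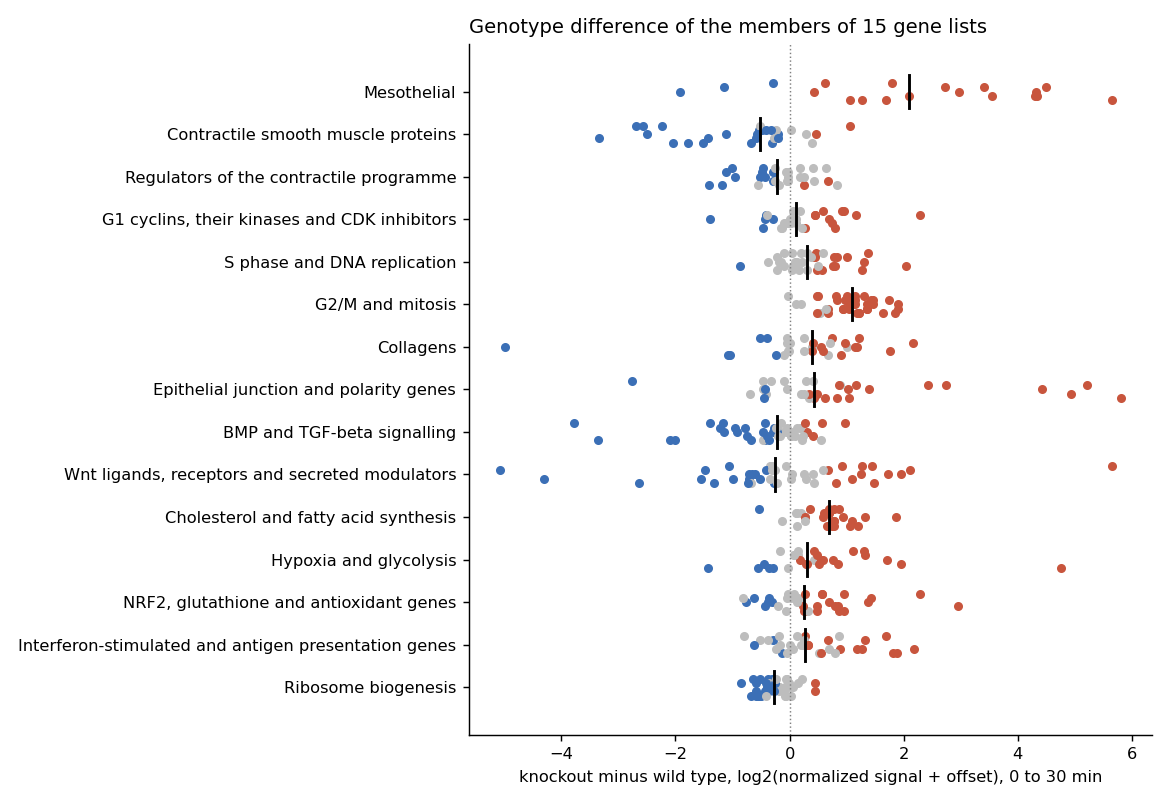
Genotype difference at 0 to 30 min (knockout minus wild type, log2 scale) of every tested member of 15 gene lists, 1 point per gene, red where called higher, blue where called lower and grey where not called; the black bar is the list median. Mesothelial markers, with a median of 2.09, and G2/M genes, with 1.10, lie to the right, and contractile proteins, with -0.53, to the left.

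Components of PDGF signalling were more often lower than higher. Of 36 tested ligands, receptors and proximal signalling genes, 13 were lower and 5 higher, with a median of -0.09 (0.39 on the values as deposited, against 0.42 for all genes). Pdgfrb, the main receptor for PDGF-BB, read 4502, 4209 and 4599 in the wild type and 3668, 3341 and 3235 in the knockout (-0.38, SE 0.06, limma adjusted p 7.47e-04). Pdgfra read 353, 334 and 272 in the wild type against 165, 176 and 189 in the knockout (-0.83, SE 0.14). The knockout arrays lay below the wild-type arrays for both receptors. The mean over the probe sets of Pdgfra differed by -0.14 and was not called, and Pdgfrb was not called without the intensity trend. Grb10, an imprinted adaptor that binds activated growth factor receptors and restrains insulin-like growth factor signalling, read 1951, 1879 and 1718 in the wild type and 136, 121 and 115 in the knockout (-3.85, SE 0.10). Pik3r1, the regulatory subunit of phosphoinositide 3-kinase, was lower (-1.15) and the catalytic subunit Pik3cb higher (1.0). The others called higher were the ligand Pdgfc (0.29), the regulatory subunit Pik3r2 (0.31) and the phosphatases Ptpn1 (0.38) and Ptprj (0.50). Pdgfc, Pik3r2 and Ptpn1 lost their calls without the intensity trend, Ptprj without the arrays at 15 min (0.43), Pdgfc without those at 0 min (0.31) or 30 min (0.26), and Pik3r2 without those of any 1 time (0.25 to 0.34). The co-receptor Lrp1 differed by -0.46 and the adaptor Nck2 by -0.76. On the 4 arrays at 0 and 15 min, 12 members were lower and 3 higher.

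Genes of mitosis were higher in the starved knockout cells. Of 39 tested G2/M genes, 34 were higher, 23 of them by at least 2-fold, none was lower and the median was 1.10. Mki67, the antigen of dividing cells, read 148, 176 and 147 in the wild type and 523, 633 and 574 in the knockout (1.85, SE 0.11, limma adjusted p 1.42e-06). Pttg1, securin, which delays the separation of sister chromatids until anaphase, read 1117, 1482 and 1021 in the wild type against 3792, 4269 and 3889 in the knockout (1.74, SE 0.08). Every knockout array exceeded every wild-type array for both. Anln, the actin-binding protein of the cleavage furrow, differed by 1.64, Birc5, survivin, by 1.47 and Top2a, the topoisomerase that untangles chromosomes, by 1.17. None of the 39 was called for a change from 0 to 30 min.

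Genes of DNA replication were higher to a smaller extent. Of 35 tested, 14 were higher, 1 was lower and the median was 0.31. Rrm2, the ribonucleotide reductase subunit of S phase, read 156, 178 and 143 in the wild type and 679, 618 and 716 in the knockout (2.05, SE 0.12). Mcm5, a subunit of the replicative helicase, read 140.0, 161 and 161 in the wild type against 355, 415 and 361 in the knockout (1.27), whereas its partner Mcm6 read 1146, 1208 and 1255 in the wild type against 632, 730.4 and 609 in the knockout (-0.87). Subunits of 1 complex thus differed in opposite directions. The licensing factor Cdt1 was higher (1.0), as was the flap nuclease Fen1 (0.75). Leaving out the arrays at 0 min left 9 higher and 1 lower.

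Cyclins and inhibitors of the G1 phase were mixed. Of 29 tested, 11 were higher and 5 lower (median 0.12). E2f8, a repressor within the E2F family that is itself expressed in S phase, differed by 2.28. Its wild-type signals were 3.31, 7.78 and 17.1, so that its difference is no exact size. Ccne1, cyclin E1, read 73, 41.3 and 53.1 in the wild type and 172, 118 and 101 in the knockout (1.16). Among the inhibitors, Cdkn1a, p21, was higher, with 1231, 1506 and 2300.3 in the wild type against 1914, 2308 and 3215 in the knockout (0.58, SE 0.07), and Cdkn2c, p18, was also higher (0.95). The knockout was the higher at each time for Cdkn1a, although the ranges over the 3 times overlapped. Cdkn1b, p27, which accumulates in quiescent cells, read 1078, 990.1 and 881 in the wild type and 711, 727 and 686 in the knockout (-0.47, SE 0.09). It was called lower, but at 0.0357 on the values as deposited, where all genes had 0.42. Also lower were Cdkn2a, which encodes p16 and p19 (-1.40), the kinase Cdk4 (-0.30), the retinoblastoma relative Rbl2 (-0.43) and the activator E2f3 (-0.41). On the values as deposited Cdk4 was at 0.19, Rbl2 at 0.0640 and E2f3 at 0.0861, and none of the 3 was called without the intensity trend. Over the means of their probe sets Rbl2 (-0.29) and E2f3 (-0.36) were not called. The Cdkn1a call was lost without the time blocks (0.58). Leaving out the arrays at 15 min gave 10 higher and 3 lower members, with Rbl2 (-0.31) and E2f3 (-0.35) not called, and leaving out those at 0 min ended the calls of Cdk4 (-0.27) and E2f3 (-0.38).

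Growth-arrest and FoxO target genes differed in both directions. Of 32 tested, 7 were higher and 12 lower (median -0.20, 0.24 on the values as deposited, against 0.42 for all genes). Gas1, a growth-arrest protein that also acts as a hedgehog co-receptor, read 138, 137 and 118 in the wild type and 1206, 943 and 1234 in the knockout (3.06, SE 0.13). Gas6, the ligand of Axl-family receptors, was higher (1.0), as were the glucocorticoid-responsive genes Tsc22d3 (1.58, mean of its probe sets 0.64) and Klf9 (0.76). Fbxo32, atrogin, a FoxO target of muscle wasting, was lower (-1.23).

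The largest differences involved genes of many different roles. Among genes above 16 on all 6 arrays, the greatest increase was that of Stk26, a kinase of the Ste20 family that acts at the Golgi and in cell polarity, at 36.8, 24.1 and 29 in the wild type and 2281, 2212 and 2366 in the knockout (6.07, SE 0.13). Moxd1, a monooxygenase-like protein of the secretory pathway, followed, at 69.8, 52.2 and 42.5 in the wild type against 1856, 1754 and 1835 in the knockout (4.96). Car9, the hypoxia-responsive carbonic anhydrase, differed by 4.75. For these genes the knockout arrays were close to each other and far from the wild-type range. Pir, pirin, differed by 4.59, Cntn2, a neural adhesion protein, by 4.39, Tmem108 by 4.29 and Shtn1, a neuronal protein of axon outgrowth, by 3.81. Also among the 12 greatest increases were the mesothelial markers Upk3b and Lrrn4, Prg4, the joint lubricant lubricin (3.65), and Myh14, a non-muscle myosin heavy chain (3.64).

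Of the 12 greatest decreases, several encode secreted or matrix proteins. Adamts9, a secreted protease that cleaves versican, read 2585, 2439 and 2249.7 in the wild type and 51.9, 85.7 and 54.9 in the knockout (-5.17, SE 0.14). Pam, which amidates secreted peptides, read 2769.6, 3027 and 2891 in the wild type against 32.5, 111 and 138 in the knockout (-5.09, SE 0.28). Dkk3, a secreted protein of the Dickkopf family, read 1793, 1628 and 1813 in the wild type against 55, 37.9 and 50.1 in the knockout (-5.08, SE 0.12). In all 3 the wild-type arrays were bright and the knockout arrays dim, with no overlap. The collagen hydroxylase P3h2 differed by -3.19, the secreted proteins Tgfbi and Pamr1 by -3.35 and -3.32, and Thsd7a, a thrombospondin-repeat membrane protein, by -4.58. Grb10 was also in this group, but the mean of its probe sets differed by -2.22 only. The remaining ones were Lum, Rab38, a small GTPase of vesicle traffic (-3.44), Phactr2, an actin and phosphatase regulator (-3.28), and the phosphodiesterase Pde7b (-3.19).

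**Figure D3:**
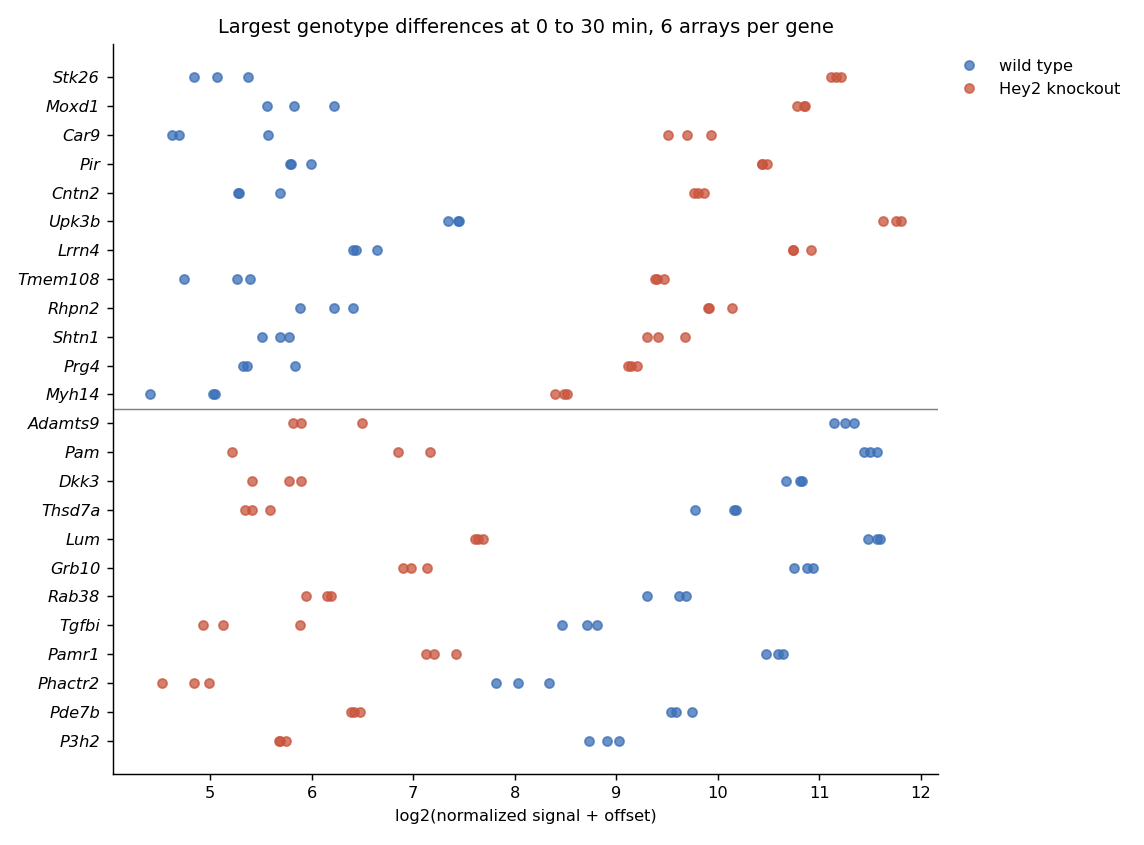
The 12 greatest increases (upper rows) and 12 greatest decreases (lower rows) among called genes above a signal of 16 on all 6 arrays, each with its 3 wild-type (blue) and 3 knockout (red) values on the log2(signal + 4.6) scale. The genotypes are separate in every row, from Stk26, higher by 6.07, to Adamts9, at -5.17.

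Some genes were above 16 in 1 genotype alone. Of the called genes, 109 exceeded 16 on all 3 knockout arrays and on no wild-type array, and 49 the reverse. Several of the 10 with the highest knockout signal are epithelial genes. Mpzl2, an adhesion protein of epithelia, read 574, 353 and 437 in the knockout, at least 27.9-fold over the wild type. Lsr, a protein of tricellular junctions, was at least 19.1-fold higher, Pkp3, a desmosomal plakophilin, at least 14.5-fold and Krt14, a keratin of stratified epithelia, at least 11.1-fold. Celsr1, a cadherin of planar cell polarity, was at least 21.1-fold higher, Ripk4, a kinase of epidermal differentiation, at least 10.7-fold and Nrxn2, a synaptic adhesion protein, at least 15.6-fold. Angptl7 was at least 12.6-fold higher and Unc45b, a chaperone of muscle myosin, at least 9.14-fold. In the wild type alone, Gdf10, a ligand related to the bone morphogenetic proteins, read 173, 141 and 165 and was at least 9.93-fold over the knockout. Agt, angiotensinogen, was at least 6.70-fold over it, the glycine-cleavage enzyme Gldc 4.42-fold, the acetyl-CoA carboxylase Acacb 4.36-fold (mean of its probe sets -1.44 on the log2 scale) and the matrix protein Abi3bp 4.25-fold, each as a lower bound. The tetraspanin Tspan12, the F-box protein Fbxl7 and the junction-associated Kazn had lower bounds of 4.11, 4.04 and 3.25-fold.

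Epithelial junction and polarity genes were higher in part. Of 32 tested, 16 were higher, 10 of them by at least 2-fold, 3 were lower and the median was 0.42. Besides Mpzl2, Lsr and Pkp3, the polarity protein Pard6b read 65.5, 75.6 and 95.3 in the wild type and 534, 467 and 648 in the knockout (2.74), and F11r, the junctional adhesion molecule A, read 2786, 2671 and 2870.3 in the wild type against 5819, 5695 and 5459 in the knockout (1.03). The 3 members called lower were Cldn1, a tight-junction claudin (-2.77), Tjp1, its scaffold ZO-1 (-0.45), and Llgl2 (-0.43). On the values as deposited Tjp1 was at 0.00596 and Llgl2 at 0.0612, and Llgl2 was not called without the arrays at 0 min (-0.47) or 30 min (-0.26). Nor was Llgl2 called without the intensity trend. Tight-junction components therefore differed in both directions. Integrins and cadherins were likewise divided, with 6 of 28 higher and 10 lower: Itgb8, an integrin that activates latent TGF-beta, was higher (2.19), as was the protocadherin Pcdh19 (1.90), and the N-cadherin Cdh2 (-0.48) and T-cadherin Cdh13 (-0.59), both typical of smooth muscle, were lower.

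Collagens were more often higher than lower. Of 30 tested, 12 were higher and 6 lower (median 0.39). Col3a1, the fibrillar collagen of the vessel wall, read 345, 397 and 393 in the wild type and 1724, 1818 and 1587 in the knockout (2.16, SE 0.09). The collagen VI chains Col6a1 (0.97) and Col6a2 (1.21) and the basement membrane chain Col4a2 (0.90) were also higher. Col2a1 was by far the greatest decrease (-4.99). Col3a1 and Col2a1 thus differed in opposite directions. The knockout signal of Col2a1 at 15 min was below 16, so that its difference is no exact size.

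Elastic fibre and matricellular proteins were divided, with 9 of 38 higher and 13 lower. Eln, elastin, the main protein of the elastic lamellae, read 77.2, 96.6 and 104 in the wild type and 489, 418 and 429 in the knockout (2.22, SE 0.14), and Fbln2, a fibulin of the elastic fibre, was higher (0.79, mean of its probe sets 0.29, not called). Tnc, tenascin-C, a matrix protein of remodelling tissue, read 907, 769 and 1058 in the wild type against 126, 105 and 109 in the knockout (-2.95, SE 0.12). The matricellular proteins Spon2 (-2.98, mean of its probe sets -1.81) and Smoc2 (-2.10) were lower too. Of 25 proteoglycan and hyaluronan genes, 8 were higher and 9 lower. The small leucine-rich proteoglycans, which bind collagen fibrils, included the decreases of Lum, at 3085, 2839 and 3036 in the wild type against 194, 190.4 and 202 in the knockout, Fmod (-3.02) and Prelp (-1.66), and the increase of Omd (1.03). The glypican Gpc6 was lower (-1.07). Of 14 laminins, nidogens and netrins, the 2 called higher were Lamc3 (1.58) and Lama5 (0.36), and the 2 called lower were Ntn1, netrin 1 (-2.19, mean of its probe sets -1.19), and Lama3, at 47.7, 25.4 and 30.4 in the wild type and not above 16 on any knockout array (at least 2.08-fold lower), with Lama5 not called without the arrays at 0 min (0.31) or over the mean of its probe sets (0.19). Nor was Lama5 called without the intensity trend. Of 36 matrix proteases and inhibitors, 13 were higher and 11 lower. Mmp3, stromelysin, read 282, 329 and 320.2 in the wild type against 2227, 2158 and 2045 in the knockout (2.77), and its inhibitor Timp1 was also higher (1.46). Adamts1 (-1.37) and Ctsc, cathepsin C (-3.59), were lower, as was Adamts9.

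Genes of BMP and TGF-beta signalling were mostly lower when called. Of 44 tested, 22 were lower, 8 of them by at least 2-fold, 5 were higher and the median was -0.23 (0.22 on the values as deposited, where all genes had 0.42). Eng, the co-receptor endoglin, and Tgfbi, a matrix protein named for its induction by TGF-beta, were among those lower, with Tgfbi at 416, 349 and 445 in the wild type and 30.2, 54.4 and 25.8 in the knockout. Bambi, a pseudoreceptor that blocks the pathway, read 252, 297 and 299.7 in the wild type against 68.1, 60.5 and 71.3 in the knockout (-2.01). Atoh8, a BMP-induced transcription factor, was lower (-1.39), as was Tgfb1i1, a focal adhesion coactivator of smooth muscle genes (-1.16). The 5 called higher were the ligands Bmp6 (0.98) and Tgfb3 (0.27), the BMP antagonist Chrd (0.56), the receptor Acvr2a (0.30) and Id1, a BMP target (0.42). Acvr2a was not called without the arrays of any 1 time (0.27 to 0.31) or over the mean of its probe sets (0.31), nor Tgfb3 without those at 0 min (0.28) or 30 min (0.27), and neither was called without the intensity trend. On the 4 arrays at 15 and 30 min, 19 members were lower and 3 higher.

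Wnt genes differed by large amounts in both directions. Of 43 tested ligands, receptors and secreted modulators, 12 were higher, 9 of them by at least 2-fold, and 16 lower, 7 by at least 2-fold. The median was -0.26, and 0.20 on the values as deposited, where all genes had 0.42. Rspo1, a secreted amplifier of Wnt signalling and also on the mesothelial list, read 7.23, 7.67 and 22 in the wild type and 831, 822 and 700.5 in the knockout (5.65, SE 0.25), while its relative Rspo2 was lower (-2.64, mean of its probe sets -1.04). The antagonists Dkk1, at 419, 354 and 339.7 in the wild type against 16.5, 8.32 and 20 in the knockout (-4.31), and Sfrp2 (-1.49) were lower, as was Dkk3. The R-spondins, which act alike on the pathway, thus differed in opposite directions. Wild-type signals of Rspo1 and knockout signals of Dkk1 were partly below 16, so that neither difference is an exact size.

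Growth factors of the FGF, IGF and EGF families were lower in 19 of 40 cases and higher in 11, with a median of -0.28 (0.19 on the values as deposited, against 0.42 for all genes). Igf2, the imprinted fetal growth factor, read 696, 642 and 585 in the wild type and 117, 118 and 122 in the knockout (-2.38, SE 0.11). Igf1, which acts on the same receptor, was higher, at 894, 885 and 1110.1 in the wild type against 2737, 2622 and 2631 in the knockout (1.47, SE 0.09). The 2 ligands thus differed in opposite directions. The binding protein Igfbp2 was lower (-1.40), the lymphatic growth factor Vegfc was lower (-1.95) and Fgf18 was higher (1.99). Of 19 imprinted genes, 3 were higher and 6 lower. Besides Grb10 and Igf2, the paternally expressed Peg3 read 1157, 1153 and 1132 in the wild type against 179.5, 207 and 126 in the knockout (-2.75), Sgce, a sarcoglycan, differed by -1.71 and Igf2r, the maternally expressed clearance receptor of Igf2, by -1.10 (mean of its probe sets -0.55). The 3 called higher were Mcts2 (0.99), the noncoding RNA Meg3 (0.85) and Dcn, decorin (0.38). Neither Meg3 nor Dcn was called over the mean of its probe sets (0.31 and 0.29) or without the intensity trend, nor Meg3 without the arrays at 15 min (0.50).

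Axon guidance genes, many of which also pattern vessels, were even, with 13 of 44 higher and 13 lower. Chl1, a neural adhesion protein, read 497, 504 and 513 in the wild type and 9.0, 20 and 12.2 in the knockout (-4.84, SE 0.19). Knockout signals of Chl1 were partly below 16, so that its difference is no exact size. Nrp2, a co-receptor for semaphorins and Vegfc, was lower (-2.37), as was Sema6d (-1.24). The ephrin Efna2 was higher (2.29), as was Cntn2.

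Genes that record the axial and tissue origin of a cell differed between the genotypes. Of 18 tested Hox genes, 4 were higher and 7 lower. Hoxa9, of the posterior part of the A cluster, read 322, 374 and 282 in the wild type and 1526, 1610.1 and 1246 in the knockout (2.15, mean of its probe sets 1.39), and Hoxc8 read 217, 196 and 195 in the wild type against 31.5, 35.4 and 31.3 in the knockout (-2.47). Hoxb3 (-0.89), Hoxb5 (-1.38) and Hoxb6 (-0.88) were lower. The 4 called higher were all of the A cluster, Hoxa9 with Hoxa5 (0.44), Hoxa7 (0.99) and Hoxa10 (0.58), with Hoxa10 not called without the arrays at 0 min (0.43) and neither it nor Hoxa5 called without the intensity trend. Of 40 mesoderm, cardiac and patterning factors, 9 were higher and 15 lower, 11 of these by at least 2-fold. Eya4, a coactivator of homeobox proteins, read 374, 386 and 379 in the wild type against 10, 7.04 and 16.1 in the knockout (-4.66). Knockout signals of Eya4 were partly below 16, so that its difference is no exact size. Lhx9, a LIM homeobox factor, was lower (-1.49), as were the cartilage factors Sox9 (-1.92, mean of its probe sets -1.02) and Sox5 (-1.85), whereas Wt1 was higher.

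Retinoid genes differed at several steps of the pathway. Of 19 tested, 8 were higher and 3 lower (median 0.43). Aldh1a3, which makes retinoic acid, read 489.9, 490.3 and 450.0 in the wild type and 4.24, 3.96 and 19 in the knockout (-5.31, SE 0.29, mean of its probe sets -3.50), while its relative Aldh1a1 was higher (0.80). Knockout signals of Aldh1a3 were partly below 16, so that its difference is no exact size. Rdh10 (2.25) and Adh1 (2.28), which oxidize retinol in the step before, were higher. Cyp26b1, which breaks retinoic acid down, was lower (-1.18), and the third member called lower was Rarres1 (-0.72).

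Of 8 tested sex-linked genes, 4 were higher in the knockout and none lower. The Y-linked Kdm5d (0.56) and Eif2s3y (0.40) were higher, and so were their X-linked partners Kdm5c (0.49) and Eif2s3x (0.30). Kdm5d was not called without the arrays at 30 min (0.36), and over the means of their probe sets Kdm5d (0.05) and Kdm5c (0.26) were not called. Neither Kdm5d nor Eif2s3x was called without the intensity trend. Uty, another Y-linked gene, read 142, 162 and 161 in the wild type and 132, 127 and 151 in the knockout and was not called (-0.18, SE 0.13). Both genotypes gave signal for Y-linked genes, and the labels do not give the sex of the mice.

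Genes of cholesterol and fatty acid synthesis were higher in the knockout as a group. Of 29 tested, 21 were higher, 5 of them by at least 2-fold, 1 was lower and the median was 0.69. Fdps, which makes farnesyl diphosphate, read 377, 477 and 373 in the wild type and 952, 859 and 1009 in the knockout (1.20, SE 0.12). Fdft1, the first step committed to sterols, was higher (0.87), as was the later enzyme Msmo1 (1.09). The desaturases Fads2, at 328, 433 and 406 in the wild type against 1348, 1459.7 and 1441 in the knockout (1.86), and Fads1 (0.78) were also higher. The 1 member called lower was Sqle, squalene epoxidase (-0.54).

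Hypoxia and glycolysis genes were higher in 16 of 29 cases and lower in 5, with a median of 0.31. Car9 read 21.2, 20 and 42.8 in the wild type and 969, 824 and 723 in the knockout. Epas1, the hypoxia-inducible factor HIF-2 alpha, was higher (1.33), as were the glucose transporter Slc2a3 (1.96), the prolyl hydroxylase Egln3, which is induced by hypoxia and marks the factor for destruction (1.71), and lactate dehydrogenase, Ldha (0.54). The 5 called lower were Adm, adrenomedullin (-1.43), the phosphofructokinase Pfkp (-0.55), the hexokinases Hk1 (-0.29, mean of its probe sets -0.50) and Hk2 (-0.46) and P4ha2, a collagen prolyl hydroxylase (-0.36). On the values as deposited Hk1 was at 0.20, Hk2 at 0.0441 and P4ha2 at 0.13, and Hk1 was not called without the intensity trend or the arrays at 30 min (-0.26). On the 4 arrays at 15 and 30 min, 16 members were higher and 3 lower, without Hk1 (-0.26) and P4ha2 (-0.33).

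Antioxidant genes were higher in 18 of 35 cases and lower in 6, with a median of 0.25. Gsta3, a glutathione transferase, read 105, 98.4 and 119 in the wild type and 928, 751 and 910.3 in the knockout (2.95, SE 0.11). The transferases Gsta4 (1.37) and Gstm5 (0.95) and the metallothioneins Mt1 (1.42) and Mt2 (2.28), which bind zinc and copper, were higher as well. Gst genes of 1 class are similar in sequence, so their probe sets may share transcripts. Without the arrays at 30 min, 17 members were higher and 3 lower.

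Ribosome biogenesis was lower by small amounts. Of 41 tested genes 20 were lower, none by 2-fold, 2 were higher and the median was -0.27, which was 0.19 on the values as deposited, where all genes had 0.42. Ncl, nucleolin, read 4484, 4700.0 and 4677 in the wild type and 3517, 3667 and 3338 in the knockout (-0.40, SE 0.05). Wdr12 (-0.85, mean of its probe sets -0.54), Rrp1b (-0.68, mean -0.39 and not called) and the helicase Ddx18 (-0.59) act in processing of the ribosomal RNA and were lower. The 2 called higher, Nhp2 (0.44) and Dkc1 (0.45), are partners in the complex that modifies uridines in ribosomal RNA and also serves telomerase. Without the arrays at 0 min, 15 members were lower and 1 higher, and Dkc1 was not called (0.28). Nor was Dkc1 called without the intensity trend.

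Interferon-stimulated and antigen presentation genes were higher in 13 of 33 cases and lower in 3, with a median of 0.27. Gbp2, a guanylate-binding protein of the defence against intracellular microbes, read 70.7, 52.5 and 58.5 in the wild type and 253, 220.4 and 233 in the knockout (1.89, SE 0.14). Igtp (1.70), the RNA sensor Ifih1 (1.81), the virus tether Bst2 (1.27) and the class I molecule H2-K1 (0.68) were higher. The 3 called lower were Ifit2 (-0.62), Ifit3 (-0.30) and B2m (-0.14), the partner chain of class I molecules. The mean over the probe sets of B2m differed by -0.24. B2m was not called without the arrays at 0 min (-0.16) or 15 min (-0.09), nor Ifit3 without those at 0 min (-0.29) or 30 min (-0.23), and on the values as deposited they were at 0.12 and 0.20. Neither B2m nor Ifit3 was called without the intensity trend. Interferon-induced genes were thus not uniform in direction. The class I genes are near-identical copies, and the strain background is mixed, so H2-K1 is uncertain. Without the arrays at 0 min, 11 members were higher and 1 lower.

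Chemokines, cytokines and complement genes were divided, with 11 of 36 higher and 13 lower. Lif, leukaemia inhibitory factor, read 51.3, 81.7 and 167 in the wild type and 379, 428 and 684 in the knockout (2.37, SE 0.15), and Il6st, the receptor chain through which it signals, was lower (-0.68). Tnfrsf11b, osteoprotegerin, the decoy receptor that protects arteries from calcifying (-1.96), the interleukin 1 receptor Il1r1 (-1.87) and the chemokine Cxcl12 (-0.65, mean of its probe sets -1.34) were lower.

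Of 23 tested potassium, calcium and TRP channels, 5 were higher and 6 lower. The called decreases included the calcium channel subunits that admit calcium for contraction: Cacna1c, the L-type pore, read 353, 352 and 450.0 in the wild type and 89.2, 84.6 and 90.6 in the knockout (-2.06, SE 0.13), its auxiliary subunit Cacna2d1 differed by -1.49 and the T-type pore Cacna1g by -2.32. Kcnmb4, a subunit of the calcium-gated potassium channel, was lower (-1.77) and the cation channel Trpc1 higher (1.05). The others called higher were the potassium channels Kcnk6 (1.19) and Kcnn4, which was not above 16 on any wild-type array (at least 3.29-fold higher), the calcium channel subunit Cacnb2 (1.11) and the store-operated channel Orai1 (0.65). Of 33 vasoactive receptors and G-protein regulators, 6 were higher and 9 lower. Gucy1a1, a subunit of the nitric oxide receptor guanylate cyclase, read 22, 19.6 and 10.7 in the wild type against 267, 212 and 234 in the knockout (3.49, mean of its probe sets 1.69), and Ramp1, a partner of the receptor for the vasodilator CGRP, was higher (1.45), as was Ece1, which makes active endothelin (0.76). Rgs17 (-2.54), which damps G-protein signals, and the ATP-gated channel P2rx4 (-0.73) were lower. Rgs17 read 18.6, 12.8 and 7.06 in the knockout, so that its difference is no exact size. The same holds for Gucy1a1, whose wild-type signal at 30 min was below 16. Of the 33, 3 were higher and 9 lower without the arrays at 15 min.

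The arrays spanned the first 30 min of PDGF-BB, and few genes were called for a change in that span. Of the 12849 genes, 75 were called for a change with time after the genotype was allowed for (0.584%), 71 with a rise from 0 to 30 min (0.553%) and 4 with a fall (0.0311%). The count was 3 without the intensity trend and 4 on the values as deposited. In the main fit, 930 genes had an unadjusted p under 0.05 in limma. With 1 array for each genotype and time, a gene not called is not shown to be unchanged. Among the 4 with a fall were the histone gene H3f3b, at 883, 230.0 and 62.7 in the wild type and 756, 410.1 and 109.9 in the knockout, and Ank3, ankyrin G, whose signal was highest at 15 min, and the other two are Riken clones. The median absolute change from 0 to 30 min was 0.13 on the log2 scale, against a median absolute genotype difference of 0.30. The immediate-early genes, transcription factors and feedback regulators that growth factors switch on without new protein, made up much of it: 27 of the 32 tested were called. Egr1, a zinc-finger factor, read 1824, 7028 and 10020.1 in the wild type and 1431, 6163 and 9814 in the knockout. Its signal was highest at 30 min in both genotypes, and the fitted change from 0 to 30 min was 2.61 (SE 0.08, limma adjusted p 2.05e-07). Egr2 changed by 7.26, Egr3 by 6.23, the nuclear receptor Nr4a1 by 5.64, Ier2 by 3.55 and Jun by 3.08. Another probe set of Egr2 was called for the genotype difference with the opposite sign, so no direction between genotypes is given for it.

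Genotype differences among the immediate-early genes rested on genes that were moving during the window. Of the 32, 7 were called higher and 6 lower, but for none of them were the 3 knockout and 3 wild-type arrays free of overlap. The counts were 6 and 3 without the arrays at 15 min. Fos, the AP-1 subunit, read 452, 4799 and 8583 in the wild type and 1267, 5292 and 8204 in the knockout and was not called (0.52, SE 0.23), but it was called without the arrays at 30 min (0.81). Fosl1, its relative Fra-1, read 22, 20.9 and 89.1 in the wild type against 65.7, 53.6 and 187 in the knockout (1.21, SE 0.19), and Csrnp1 read 89.5, 115 and 750.3 in the wild type against 219, 337 and 1856 in the knockout (1.36, SE 0.11). For both, the knockout was the brighter at each time taken alone, while the rise with time made the genotypes' ranges overlap. Dusp5, a nuclear phosphatase of the ERK kinases, was also higher (1.45), and Klf6 (-0.58) and Myc (-0.58) were lower. The calls of all 5 were lost without the time blocks, and that of Dusp5 also without the intensity trend. With 1 array for each genotype and time, whether the rise itself differed between genotypes was not tested.

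**Figure D4:**
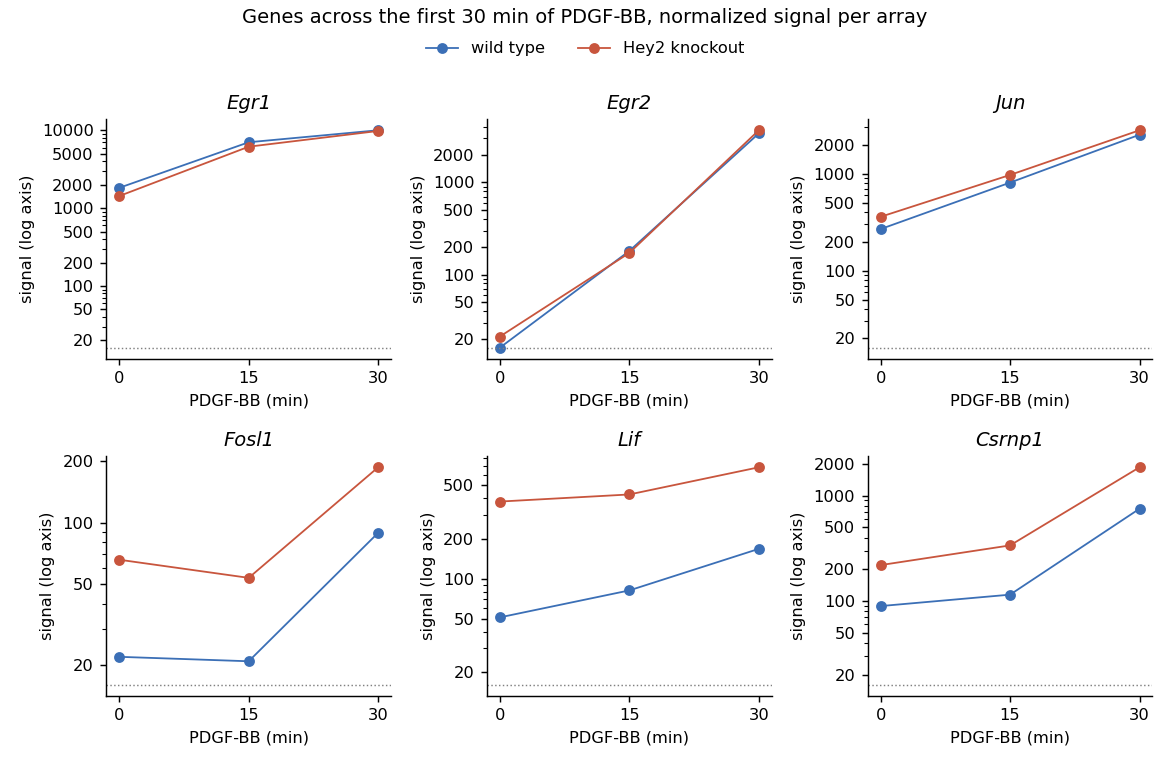
Normalized signal (log axis) of 6 genes at 0, 15 and 30 min of PDGF-BB, 1 point per array, with the wild-type and knockout arrays joined by lines; the dotted line is the signal of 16. Egr1, Egr2 and Jun rise in both genotypes, and Fosl1, Lif and Csrnp1 lie higher in the knockout at each time.

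The genotype difference at 0 to 30 min was set against that on the 6 other arrays at 120, 180 and 240 min to see which part of it was already present near quiescence. The late arrays had 4808 genes called (37.4%), 2490 higher (19.4%) and 2318 lower (18%). That count was 2612 without the time blocks, 2783 without the arrays at 180 min, 2895 without the intensity trend and 793 on the values as deposited, 88.9% of them higher, so the overlaps below rest on the setting used here. Of the 5091 genes called early, 3260 were also called late, 3191 of them with the same sign and 69 with the opposite sign. Of the 1189 with at least 2-fold, 951 were called late with the same sign. Across the 12849 genes, which are not independent, the early and late differences correlated with r = 0.80. The difference between the windows itself was called for 581 genes (4.52%), 290 in the positive direction (2.26%) and 291 in the negative (2.26%), but this count fell to 59 without the arrays at 15 and 180 min, to 243 without those at 30 and 240 min to 102 without the time blocks, to 297 over the mean of probe sets and to 27 without the intensity trend. It was 0 on the values as deposited, where 104 genes had an unadjusted p under 0.05 in limma.

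The counts of the gene lists in the early and the late window are given side by side, each from its own calls. G2/M genes were higher in 34 of 39 early and 31 late, contractile proteins lower in 20 of 29 early and 21 late, mesothelial markers higher in 16 of 19 early and 15 late, and BMP and TGF-beta genes lower in 22 of 44 early and 20 late. Ribosome biogenesis genes were lower in 20 of 41 early and 30 late. Cholesterol and fatty acid synthesis genes were higher in 21 of 29 early and 12 late, and for 5 of them the difference between the windows was called. Hypoxia and glycolysis genes were higher in 16 and lower in 5 early and higher in 12 and lower in 9 late, with 7 called between the windows. The immediate-early genes were lower in 6 of 32 early and 19 late, with 12 called. Among the 32 FoxO and growth-arrest genes, 7 were higher and 12 lower early, and 11 higher and 8 lower late.

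Single genes differed between the windows in both directions. Lif was higher in the knockout early and, at 874, 1151 and 1147 in the wild type and 520.0, 579.7 and 614 in the knockout at 120, 180 and 240 min, lower late, a difference between the windows of -3.24 (SE 0.19, limma adjusted p 8.13e-06). The feedback inhibitor of receptor tyrosine kinases Spry4 was higher early (2.94) and less so late (0.58), as was the lipoprotein receptor Olr1 (3.51 and 1.21). The skeletal alpha actin Acta1, which serum response factor also drives, differed by -0.82 early and -3.25 late, with the early call lost without the arrays of any 1 time (-0.67 to -0.91). Mfsd2a, a lipid transporter, differed by 1.66 early and -0.82 late, and Dusp5 by 1.45 and -0.76. Early wild-type signals of Mfsd2a were 14.1, 14.6 and 22.7, so that its early difference is no exact size. The same holds for Olr1, whose wild-type signal at 15 min was below 16. In the other direction, Dkk1 was lower by -4.31 early and -1.47 late, the phosphatase Dusp8 had differences of -0.44, which was not called (mean of its probe sets -0.09), and 1.96, and the RNA-binding protein Mex3b of -0.55 and 1.81. Hey2 belonged with these, with -1.14 early and 0.80 late (difference between the windows 1.94, SE 0.34, limma adjusted p 0.00722).

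**Figure D5:**
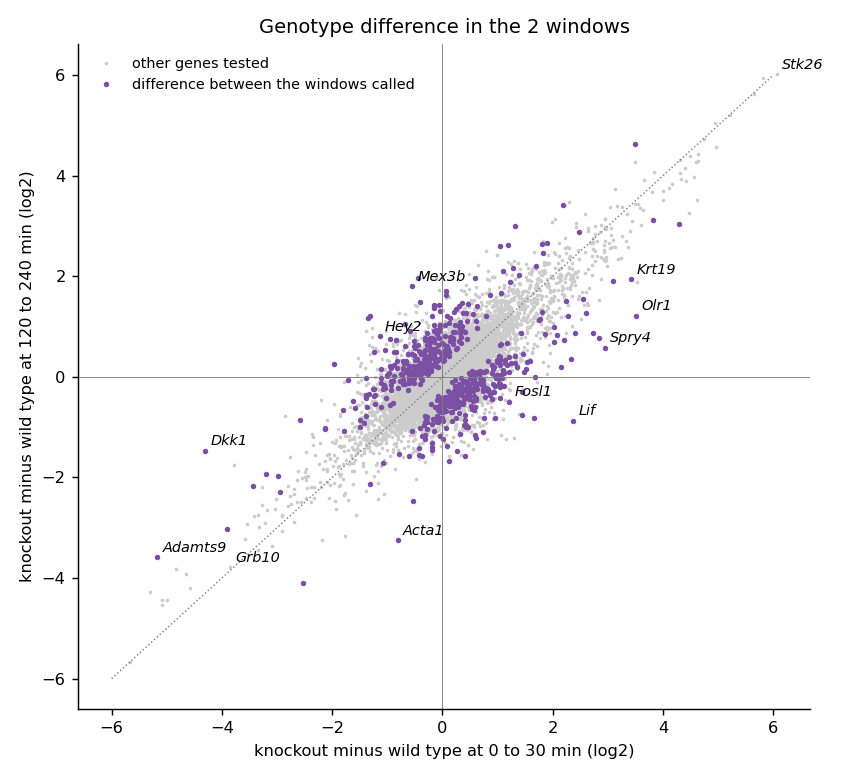
Genotype difference (knockout minus wild type, log2) of the 12849 genes at 120 to 240 min against that at 0 to 30 min, 1 point per gene, with the 581 genes whose difference between the windows was called in purple and the dotted line marking equal values. Most genes lie along the line, r = 0.80, while Lif lies at 2.37 early and -0.88 late.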

How the data were processed

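Total RNA was measured on 16 Affymetrix arrays, 1 per genotype and time. The deposited value of each of 45101 probe sets is a linear intensity, which the submitters' processing notes tie to MAS5. Its version, settings and scaling target were not found in the labels. Values were quantile normalized over the 16 arrays, because the deposited scales differ between arrays, and analysed as log2(signal + 4.6), where 4.6 is the 20th percentile of the deposited values. This offset shrinks the differences of genes with low signal.

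Testing was limited to probe sets whose signal exceeded 16 on at least 3 of the 6 arrays, which left 23161. The signal of 16 stands for no detection call: it is the 40.7th percentile of the deposited values. Of all probe sets, 34945 carry 1 gene symbol, 932 several and 9160 none, 64 are controls, and 34741 matched a current gene by identifier. A gene was read by its brightest tested probe set with 1 symbol. limma 3.58.1 in R 4.3.3 (empirical Bayes with trend) gave the genotype difference with time as a block, and Benjamini-Hochberg adjustment ran over all genes tested. The early fit has 2 residual degrees of freedom and the fit across windows 4. An exact permutation test of 3 against 3 arrays cannot go below 0.1, so none is given. The arrays at 60 and 480 min were not used in tests, since wild-type arrays at these times stood apart from the rest. The fits were also run on simulated data with independent noise drawn from the fitted model, which cannot show whether the p-values hold for these arrays.

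The replicate number stands for the harvest time. Arrays of the same time deviated together with correlations of 0.16 at 0 min, 0.01 at 15 min and 0.20 at 30 min. The block was kept since the times are given by the labels.

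Named genes are a set of Hey, Notch, PDGF and smooth muscle genes. Added to them are the 12 greatest increases and decreases among called genes above 16 on all 6 arrays. Further ones are the 10 genes with the highest signal in 1 genotype alone and up to 5 genes with the smallest p of each list. The last are 6 genes each way between windows and 6 with time. Where 5 or fewer members of a list were called one way, they are named too. These, and genes named for the promoter match, were chosen after their values were seen. The arrays compared, the gene lists and the rules were chosen with earlier results of these data known. Alternatives changed the scaling, offset, filter, choice of probe set, trend, block, estimate of spread and the arrays left out. Predicted genes were counted and not named. The result of 1 gene list is not reported here.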

Additional observations from a re-analysis of the deposited data

Results flagged for a closer look

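The results below are genes named in the text whose genotype difference (knockout minus wild type, log2 scale) was not the same at 120 to 240 min as at 0 to 30 min, by limma's test of the difference between the windows (6 arrays in each, 3 of each genotype). Adjusted p-values ran from 8.13e-06 for Lif to 0.0491 for Gata6, and each value is the late minus the early difference. The call rests on few arrays: over all genes, 581 were called (4.52%), 59 without the arrays at 15 and 180 min, 102 without the time blocks, 297 over the mean of probe sets, 27 without the intensity trend and 0 on the values as deposited. What set the windows apart was not tested. Among them are the 6 genes each way that were named for this same test, so their values were chosen for size. The others were named for other results. The number of genes listed says nothing of the share of genes that differed.

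Hey2 and its pathway were among them. Hey2 itself had 1.94, since it was lower in the knockout early (-1.14) and at 0.80 late. The ligand Jag1 had 0.81, from -0.60 early to 0.21 late, and the receptor Notch1 had -1.33, from 0.89 to -0.43. Bhlhe40 had -1.23. The receptors Pdgfra and Pdgfrb had 1.14 and 0.51, with late differences of 0.31 and 0.13.

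Genes of signalling and transcription were also among them. Lif had -3.24, the feedback inhibitor Spry4 -2.36, the phosphatases Dusp5 and Dusp8 -2.21 and 2.40, and the RNA-binding protein Mex3b 2.36. The immediate-early genes Egr2, Fosl1, Csrnp1 and Ier2 had -1.79, -1.70, -1.15 and -0.89. Srf had -0.66, Gata6 0.59 and the cell cycle inhibitor Cdkn1a -0.59. Other genes were the scavenger receptor Olr1, with -2.29, the lipid transporter Mfsd2a -2.49, the skin gene Lce1h 2.54, the homeobox gene Cphx3 2.51 and the integrin Itgb8 1.23.

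Genes of the cytoskeleton and of smooth muscle included Acta1, with -2.44, Pdlim7, with -0.79, and Vcl, with 0.26. The regulator Prrx1 had 0.49 and Rgs17 -1.56. Early knockout signals of Rgs17 were partly below 16, so that its value is no exact size. The FoxO target Fbxo32 had 1.0, from -1.23 early to -0.24 late.

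Among matrix and secreted proteins, the early decreases of Adamts9, Lum, Tnc, Spon2 and Dkk1 were less deep late, with 1.59, 0.88, 0.65, 1.01 and 2.84. The early increases of Timp1 and Col4a2 were smaller late, with -1.01 and -0.67. The endothelin-converting enzyme Ece1 had -0.65. Of the large differences, Rab38 had 1.28, Pde7b 1.26, Tmem108 -1.25, Rhpn2 -0.69 and Kazn 2.22, where the early knockout signals of Kazn were all at or below 16, so that its value is no exact size. The imprinted genes Mcts2 and Meg3 had -0.65 and -1.22.

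Among epithelial, patterning and metabolic genes, Krt19 had -1.48 and Pard6b -1.87, both remaining higher late (1.94 and 0.87). The homeobox genes Hoxb5, Hoxb6 and Lhx9 had 1.36, 0.89 and 0.63. The retinoid enzymes Aldh1a1 and Rdh10 went apart, with 0.42 and -0.74. The sterol enzyme Msmo1 had -0.98, lactate dehydrogenase Ldha -0.54, the lipase Lpl 0.64, the metallothioneins Mt1 and Mt2 -0.55 and -1.07, and the nucleolar protein Nhp2 -0.60.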

How the results depend on the processing

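On the values as deposited, 301 genes were called at 0 to 30 min (5091 with quantile normalization), 793 at 120 to 240 min (4808), 0 for the difference between the windows (581, with 104 at an unadjusted limma p under 0.05) and 4 for the change with time (75). The late calls were then 88.9% higher in the knockout, and the median of all genes moved to 0.42 early and 0.39 late. There, 17 named genes called lower turned sign: B2m (0.12), Cdk4 (0.19), Cdkn1b (0.0357), E2f3 (0.0861), Hes6 (0.0942), Hk1 (0.20), Hk2 (0.0441), Ifit3 (0.20), Llgl2 (0.0612), Maml1 (0.0944), Nkain4 (0.21), Notch2 (0.19), Nr4a1 (0.0279), P4ha2 (0.13), Rbl2 (0.0640), Rbpj (0.0302) and Tjp1 (0.00596), all below that median. Without the intensity trend the counts were 3331, 2895, 27 and 3. Without the replicate block they were 4757 early, 2612 late and 102 between the windows, and with the mean of all tested probe sets 297 between the windows. The cause of these changes was not tested. Leaving out the arrays of 1 time gave 4038 to 4367 calls early, 2783 to 5000 late and 59 to 432 between the windows, the lowest late and between-window counts without the arrays at 15 and 180 min. The other alternatives kept the counts within 1.5 times. Of 284 called named genes, 82 kept call and sign under every alternative run, and 223 with the values as deposited left aside. The replicate block, the harvest time, was part of the main fit: without it 12 named genes lost their call. The number of arrays limits the precision, since each genotype and time has 1, and signals at or below 16 set only bounds.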
